A study of Danio rerio with 4 samples.

Results

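This comparison sets the RNA immunoprecipitation sequencing (RIP-seq) library labelled ddx39a mutant against the RIP-seq library labelled wild type, 2 of the 4 libraries of a study of zebrafish embryos at 24 h post fertilisation. Its members are the genes that reached 1 CPM, a count scaled to the size of its library, in at least one of the pair, 15762 of the 31953 genes in the files. The study also sequenced poly(A)-enriched RNA of whole ddx39a mutant and wild-type embryos, and its stated aims were to describe the transcriptome of the mutants and to identify RNAs bound by DDX39A. Each of the 4 groups held 1 library, so no difference below has a replicate check, and each comparison is between libraries and not between genotypes.

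The 2 RIP-seq libraries carry different genotype labels, ddx39a mutant and wild type, and the same stage and tissue, whole embryo. For both, the labels' protocols give one procedure: messenger RNA for Flag-tagged ddx39a was injected at the one-cell stage into embryos that are ddx39a mutants, and RNA was recovered at 24 h from the cleared lysate with beads against the Flag tag. Read literally, both libraries then come from mutant embryos with the tagged protein, and the wild-type label goes against that procedure. Which library, if either, was a mock precipitation or an untagged control cannot be settled from the sources used here, so both are called by their labels and a ratio below is the mutant label over the wild-type label. No allele name, number of pooled embryos or amount of injected mRNA stands in the labels.

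In RIP-seq, a protein is pulled from a lysate through an antibody and the RNA that comes with it is sequenced, so a count depends both on how abundant an RNA is and on how well it was recovered. DDX39A is a DEAD-box RNA helicase, a class of enzymes that use ATP to remodel RNA and RNA-protein complexes. With its close relative DDX39B (UAP56) it works in pre-mRNA splicing and, with the THO complex and the adaptor ALYREF, in loading mRNA for export from the nucleus.

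The mutant-label library held 2246938 reads counted to genes and the wild-type-label library 1966053. The same 5 features, led by a pair of loci without a protein name, took 69.5% of the counts with the mutant label and 75.5% with the wild-type label, which left 685613 mutant-label and 480709 wild-type-label counts for everything else. Records that aligned to more than 1 place and were not counted made up 89.5% of all records with the mutant label and 91.8% with the wild-type label, against 8.42% in mutant RNA-seq and 11.2% in wild-type RNA-seq. Of the 2 zebrafish genes with the symbol DDX39A, ENSDARG00000015111 had 199 counts with the mutant label and 318 with the wild-type label in RIP-seq, a ratio of 0.511 (0.426 to 0.612), and in RNA-seq 706 counts in the mutant and 3742 in the wild type. The other, ENSDARG00000006225, had 153 counts with the mutant label and 191 with the wild-type label, a ratio of 0.654 (0.525 to 0.813). The counts do not separate the injected ddx39a mRNA from the embryos' own. Both RIP-seq libraries held transcripts of epidermis, muscle, yolk layer, blood and nervous system, as a whole embryo should, but the lens markers were close to empty in both, with 0 or 1 count per gene with the mutant label and 2 to 4 with the wild-type label among the 8 lens genes compared.

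Counts were scaled as CPM with TMM factors computed over the 2 libraries. A gene is called higher or lower below when the ratio of its scaled counts was at least 2-fold and the 95% exact binomial interval of that ratio excluded 1. Intervals stand in brackets after a fold or ratio, and with 1 library per label they cover counting error only. Reads counted without molecular identifiers can be copies of one molecule, in which case the intervals are too narrow. By this rule 1319 genes, 8.37% of those compared, were higher with the mutant label and 835, 5.30%, were lower. In the RNA-seq pair the same rule called 2.16% of 18800 genes higher and 2.60% lower. The RNA-seq libraries were deeper, with 9533101 gene counts in the mutant and 9922182 in the wild type, so the shares of the 2 pairs are not measured alike. Each interval was set for 1 gene and not adjusted for the number of genes, so counting error alone can give some calls. Of the RIP-seq calls 61.2% were higher, a share that was 43.0% when the libraries were scaled by their totals without the 5 leading features and 69.1% when they were scaled by all counts.

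Depth was uneven between the 2 sets of calls. Genes called higher had a median of 43 counts with the mutant label and 12 with the wild-type label, and together they held 9.04% of the mutant-label counts and 2.21% of the wild-type-label counts. Genes called lower had a median of 6 counts with the mutant label and 17 with the wild-type label, and held 0.530% of the mutant-label counts and 1.35% of the wild-type-label counts. The lower set was thus the more thinly counted. A whole interval beyond 2-fold was kept by 440 of the 1319 higher genes, 33.4%, and by 74 of the 835 lower ones, 8.86%, while a ratio of at least 4-fold was kept by 42.8% of the higher and 44.0% of the lower genes. The median log2 ratio of all genes compared was -0.06, with its quartiles at -0.74 and 0.69. At the edge of the expression limit, a gene with 2 counts with the wild-type label stood at a CPM of 1.05 and was kept, while one with 2 counts with the mutant label stood at 0.860 and was not.

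**Figure D1:**
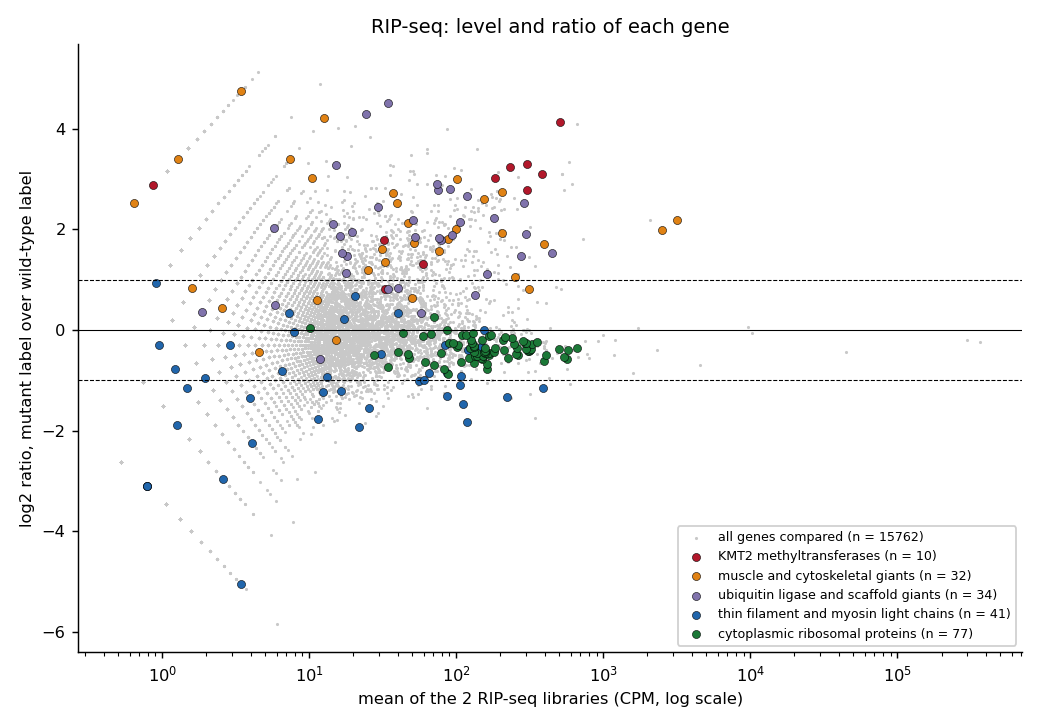
Each point is 1 of the 15762 genes compared in RIP-seq, placed by the mean CPM of the 2 libraries (log axis) and by its log2 ratio, mutant label over wild-type label, with dashed lines at 2-fold. The KMT2, ubiquitin ligase and muscle giant genes lie mostly above the upper line, the thin filament genes mostly below 0, and the 77 ribosomal protein genes in a narrow band just below 0.

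The gene lists differed in their median log2 ratios. At the top of the order of median log2 ratios stood classes known for very large proteins: the KMT2 methyltransferases at 2.95, the ubiquitin ligase and scaffold giants at 1.88, the muscle and cytoskeletal giants at 1.87, the large matrix and adhesion proteins at 1.56 and the PI3K-like kinases with DNA repair giants at 1.39. Towards the bottom stood, among others, thin filament and myosin light chain genes at -0.999, tubulins and cytoplasmic actins at -0.51, nuclear respiratory chain genes at -0.51 and cytoplasmic ribosomal proteins at -0.40. Transcript and protein lengths were not analysed here. In RNA-seq the medians of these 9 lists lay between -0.71 and 0.59. The lists were put together with earlier results of these data known, so their order is a description of the 2 libraries.

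**Figure D2:**
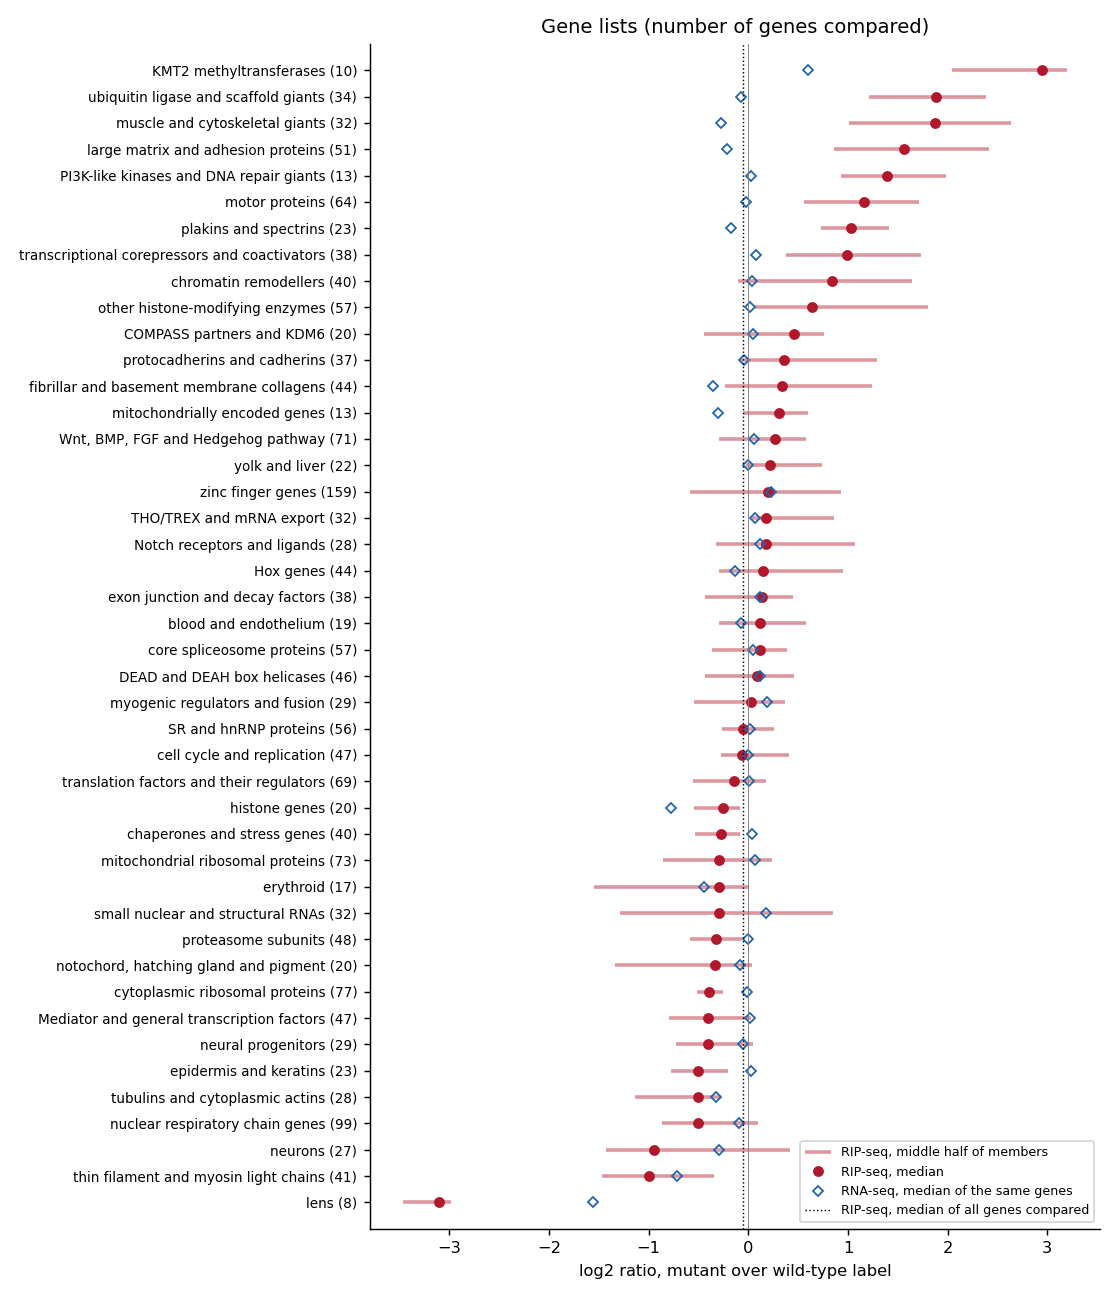
Rows are gene lists with the number of genes compared in RIP-seq, ordered by their RIP-seq median log2 ratio, mutant label over wild-type label (filled circles, with a bar between the quartiles of the members), and open diamonds give the RNA-seq median of the same genes, mutant over wild type. RIP-seq medians run between -3.10 for lens and 2.95 for KMT2, while the RNA-seq medians of the lists drawn, those with at least 5 genes compared in RIP-seq, stay outside lens between -0.78 and 0.59.

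Among regulators of chromatin, many genes for large catalytic and scaffold subunits were called higher with the mutant label, while core partner subunits of the same complexes were mostly not called. The KMT2 genes encode histone methyltransferases that mark promoters and enhancers of active genes, and 8 of the 10 compared were called higher with none lower. KMT2D, which acts at enhancers, had 1587 counts with the mutant label and 151 with the wild-type label, 8.58-fold higher (7.25 to 10.2). The 2 KMT2C genes, its partner in that role, had 973 counts with the mutant label and 84 with the wild-type label for ENSDARG00000079312, 9.45-fold higher (7.56 to 11.96), and 1239 counts with the mutant label and 146 with the wild-type label for ENSDARG00000075560, 6.92-fold higher (5.83 to 8.28). Both kmt2b genes were called higher: kmt2ba had 760 counts with the mutant label, against 76 with the wild-type label, and kmt2bb had 1284 counts with the mutant label, against 106 with the wild-type label. In every one of these genes the mutant-label count was the larger by a factor of more than 5 after scaling. In RNA-seq, 9 genes of the KMT2 list were compared and none was called, but their median log2 ratio, 0.59, was the highest of the lists. The part of one in the other was not tested.

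The SETD1 branch and the partners that all these enzymes share lay closer to equality. SETD1B had 116 counts with the mutant label and 27 with the wild-type label, 3.51-fold higher (2.29 to 5.55), and setd1a had 197 counts with the mutant label and 64 with the wild-type label, 2.51-fold higher (1.89 to 3.38). KMT2E, a family member with little known enzyme activity, had 97 counts with the mutant label and 45 with the wild-type label and missed the size rule with a ratio of 1.76 (1.22 to 2.56). The core subunits that hold the catalytic subunit in its active form gave ratios below 1: WDR5 had 63 counts with the mutant label and 70 with the wild-type label, RBBP5 had 34 counts with the mutant label and 39 with the wild-type label, and ASH2L had 41 counts with the mutant label and 46 with the wild-type label. Menin (MEN1), which tethers KMT2A to DNA, had 24 counts with the mutant label and 21 with the wild-type label. None of these 4 was called, and their intervals included 1. Of the 20 COMPASS partner and KDM6 genes compared, 3 were higher and 2 lower, and the largest of the higher ones by counts was KDM6B, a histone demethylase, with 837 counts with the mutant label and 216 with the wild-type label, 3.16-fold higher (2.72 to 3.69).

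Chromatin remodellers use ATP to slide or exchange nucleosomes, and 17 of 40 were higher and 2 lower. CHD7, the gene mutated in CHARGE syndrome in humans, had 2618 counts with the mutant label and 609 with the wild-type label, 3.51-fold higher (3.21 to 3.84), and chd6 had 789 counts with the mutant label and 106 with the wild-type label, 6.07-fold higher (4.95 to 7.51). EP400, the motor of a complex that exchanges histone variants, had 793 counts with the mutant label and 123 with the wild-type label, and TRRAP, the scaffold it shares with acetyltransferase complexes, had 739 counts with the mutant label and 152 with the wild-type label. The SWI/SNF family was split. Its DNA-binding subunit ARID1A was higher in both copies, with 427 mutant-label and 137 wild-type-label counts in one and 524 mutant-label and 184 wild-type-label counts in the other, whereas its motor SMARCA4 ENSDARG00000077226 had 683 mutant-label and 778 wild-type-label counts, a ratio of 0.716 (0.645 to 0.795), and its actin-related subunit ACTL6A had 88 mutant-label and 138 wild-type-label counts.

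Of 57 other histone and DNA modifying enzymes 20 were higher and none lower. The acetyltransferases EP300 and CREBBP, coactivators of many transcription factors, were all among them: one EP300 gene had 990 mutant-label and 130 wild-type-label counts, the other had 562 mutant-label and 76 wild-type-label counts, and CREBBP had 309 mutant-label and 59 wild-type-label counts. Of the histone methyltransferases, setd2 was 5.41-fold higher (4.39 to 6.72) and ASH1L was 5.18-fold higher (4.12 to 6.58). All 3 TET genes, which oxidise methylcytosine in DNA, were higher: TET1 had 211 counts with the mutant label, against 15 with the wild-type label, tet3 had 422 counts with the mutant label, against 77 with the wild-type label, and TET2 had 205 counts with the mutant label, against 58 with the wild-type label. In RNA-seq none of the 3 was called, at mutant over wild-type ratios of 1.65 for TET1, 1.02 for tet3 and 1.35 for TET2. The deacetylase HDAC1, with 314 mutant-label and 329 wild-type-label counts, and the Polycomb methyltransferase EZH2, with 67 mutant-label and 59 wild-type-label counts, were not called.

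Transcriptional cofactors had many higher calls. Of 38 corepressor and coactivator genes 16 were higher and none lower, among them the nuclear receptor corepressor NCOR1, with 685 counts with the mutant label and 147 with the wild-type label. The list also took in TNRC6A and TNRC6C, which work with Argonaute in microRNA silencing and not in transcription, and TNRC6A was 3.06-fold higher (2.58 to 3.64) while TNRC6C was 7.25-fold higher (5.07 to 10.7). Mediator is the complex of many subunits that links activators to RNA polymerase II, and of its 29 genes compared 3 were higher and 3 lower, 10.3% in each direction against 8.37% and 5.30% of all genes. The higher ones were MED1 and both MED13 genes. MED1 had 79 mutant-label and 29 wild-type-label counts, one MED13 gene had 199 mutant-label and 47 wild-type-label counts, and the other had 275 mutant-label and 84 wild-type-label counts. The large subunits MED12, with 205 mutant-label and 104 wild-type-label counts, and MED14, with 57 mutant-label and 49 wild-type-label counts, were not called. The lower ones were MED4, with 4 mutant-label and 13 wild-type-label counts, MED6, with 8 mutant-label and 22 wild-type-label counts, and one of the 2 MED19 genes, with 9 mutant-label and 19 wild-type-label counts. The Mediator and general transcription factor list, which left out MED1 and the MED13 genes, had none of 47 higher and 4 lower, 8.51% against 5.30% of all genes. Its lack of higher calls thus depends on which subunits it held.

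**Figure D3:**
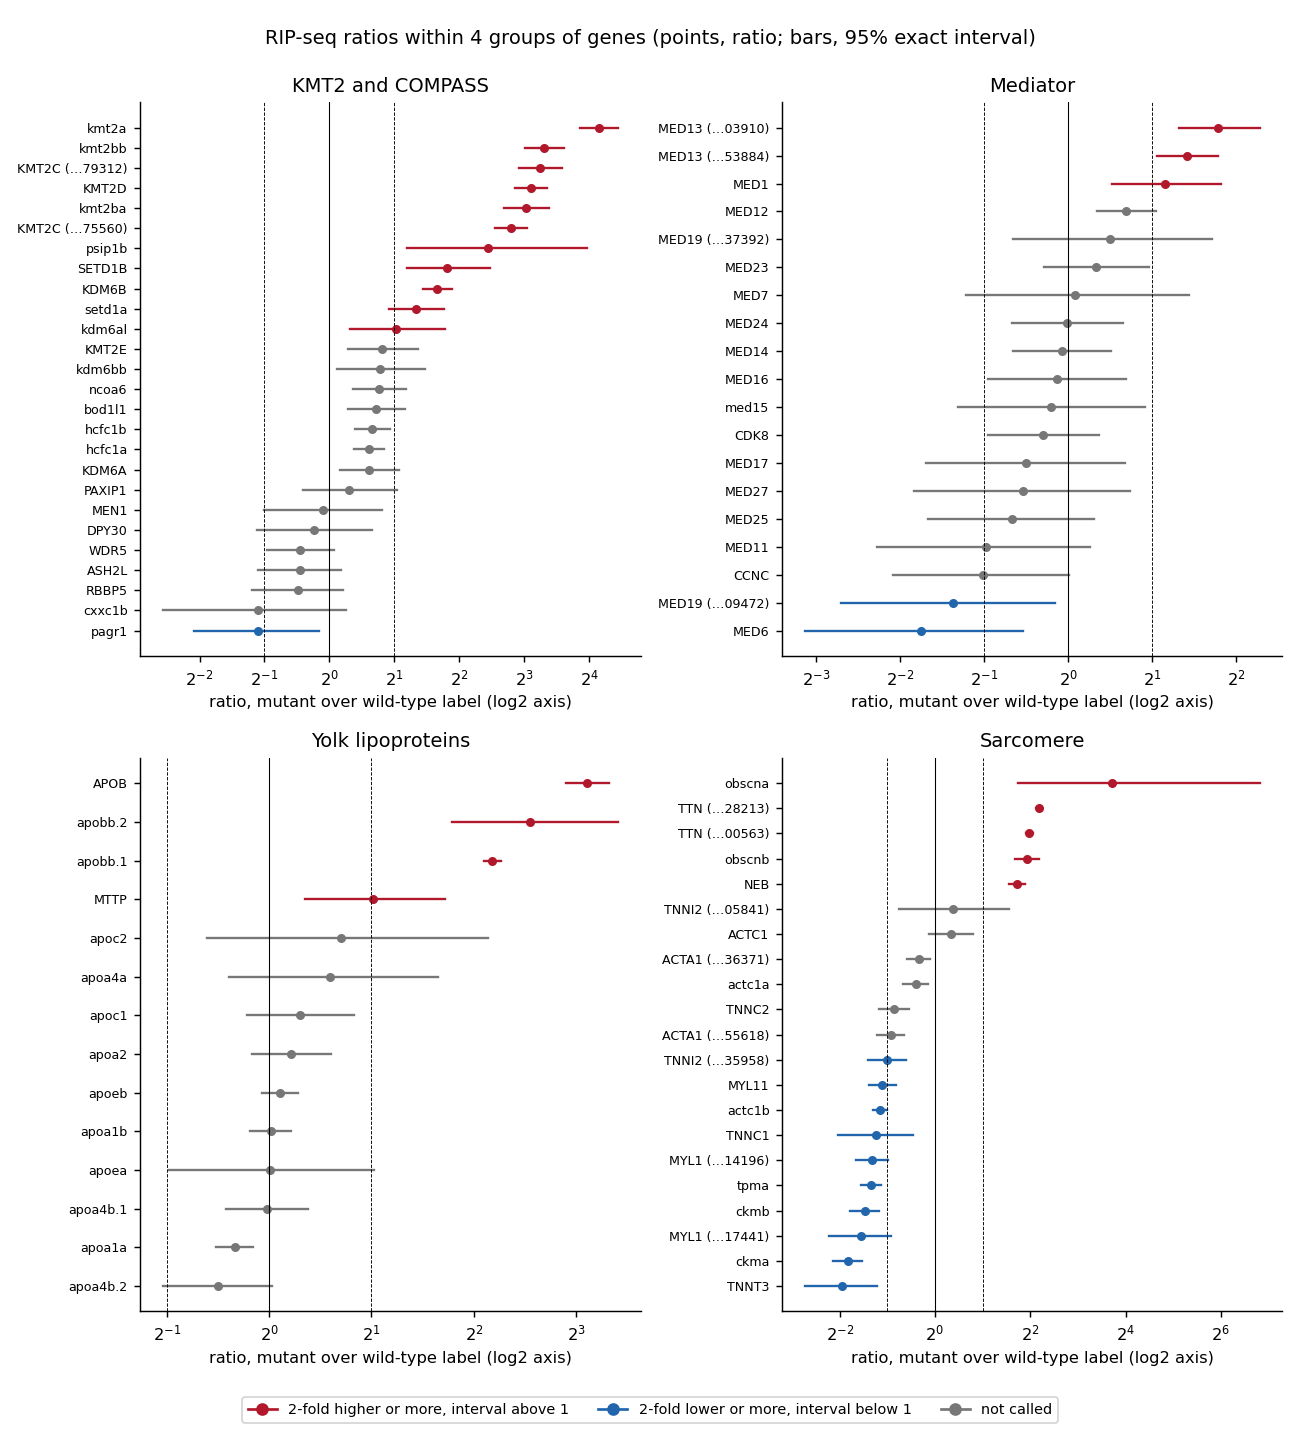
Points give the RIP-seq ratio, mutant label over wild-type label, of single genes with at least 20 counts in the 2 libraries together, and bars its 95% exact interval, on log2 axes for 4 groups: KMT2 and COMPASS, Mediator, yolk lipoproteins and sarcomere. Within each group the upper genes reach 2-fold or more (kmt2a 17.7-fold, MED13 3.45-fold, APOB 8.61-fold, obscna 13.1-fold) while other members sit near or below a ratio of 1. Some genes lie between, with intervals above 1 but ratios under 2-fold, among them hcfc1a at 1.53 and MED12 at 1.61.

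The very large ubiquitin ligases and membrane scaffolds came next below the KMT2 genes in the order of medians, and 27 of 34 were higher and none lower. HUWE1, a HECT ligase that marks many nuclear proteins for degradation, had 1546 counts with the mutant label and 434 with the wild-type label, 2.91-fold higher (2.61 to 3.24). BIRC6, which blocks cell death and joins ubiquitin to its targets, had 1140 counts with the mutant label and 162 with the wild-type label, 5.74-fold higher (4.87 to 6.81). The ligase HERC1 was 6.38-fold higher (4.88 to 8.47) and HERC2 was 7.04-fold higher (5.12 to 9.89). The lipid transfer protein VPS13D had 306 mutant-label and 33 wild-type-label counts, and LYST, which controls the size of lysosomes, had 306 mutant-label and 36 wild-type-label counts.

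The PI3K-like protein kinases sense DNA damage, nutrients and faulty mRNA, and with a set of DNA repair proteins they gave 8 of 13 higher and none lower. SMG1, which starts nonsense-mediated mRNA decay, had 713 counts with the mutant label and 107 with the wild-type label, 5.44-fold higher (4.43 to 6.73). The damage kinase ATM was 4.90-fold higher (3.07 to 8.18), ATR was 3.06-fold higher (1.85 to 5.29), and the growth kinase MTOR was 3.97-fold higher (2.88 to 5.58). brca2, which acts in the repair of broken DNA, had 263 counts with the mutant label and 41 with the wild-type label, 5.23-fold higher (3.76 to 7.46), while BARD1 (11 mutant-label and 7 wild-type-label counts) and FANCD2 (35 mutant-label and 22 wild-type-label counts) were not called.

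Cytoskeletal linkers and motors were higher as well. Plakins, spectrins and ankyrins tie filaments to junctions and membranes, and 12 of 23 were higher, none was lower and every ratio lay above 1. Dystonin (DST) had 405 counts with the mutant label and 53 with the wild-type label, 6.24-fold higher (4.67 to 8.47), spectrin SPTAN1 was 2.39-fold higher (2.07 to 2.76), and SPTBN1 was 2.46-fold higher (2.10 to 2.89). The desmosome linker DSP had 332 mutant-label and 178 wild-type-label counts in one gene and 213 mutant-label and 112 wild-type-label counts in the other, and periplakin (PPL) had 789 mutant-label and 353 wild-type-label counts, all with ratios under 2-fold. SPTB and ANK1, parts of the red cell membrane skeleton, were not called.

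Of 64 motor protein genes 32 were higher and 1 was lower. The 11 dynein heavy chains, the motor subunits that pull cargo along microtubules or bend cilia, were all called higher. Cytoplasmic DYNC1H1 had 1011 counts with the mutant label and 155 with the wild-type label, 5.32-fold higher (4.49 to 6.34). The axonemal heavy chains, which work in cilia and were rare in the embryo, lay between 17 and 50 counts with the mutant label and 0 and 11 with the wild-type label. DNAH1 had 21 counts with the mutant label and 0 with the wild-type label. It was 5.71-fold higher against a floor of 3 counts, with an interval that starts at 4.25-fold. DNAH3 had 17 counts with the mutant label and 0 with the wild-type label. It was 4.62-fold higher against the same floor, with an interval that starts at 3.37-fold. The gene called lower was kif18a, a kinesin of the mitotic spindle, with 28 mutant-label and 56 wild-type-label counts. The non-muscle myosin MYH9, among the most abundant motors, had 844 mutant-label and 395 wild-type-label counts in one gene, a ratio of 1.74 (1.55 to 1.97), and 746 mutant-label and 396 wild-type-label counts in the other, a ratio of 1.54 (1.36 to 1.74).

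Muscle genes were called in both directions. The giant scaffold and calcium release proteins were higher with the mutant label, 22 of 32 with none lower, although their mRNA was on balance lower in mutant RNA-seq, with a median log2 ratio of -0.27 and 5 of 31 called lower there. The ryanodine receptors RYR1, RYR2 and RYR3, the channels that release calcium for contraction, were all called higher. RYR1 had 826 counts with the mutant label and 101 with the wild-type label for ENSDARG00000023797, 6.67-fold higher (5.42 to 8.29), and RYR3 had 56 counts with the mutant label and 2 with the wild-type label, 22.8-fold higher (6.04 to 193). Nebulin (NEB), which runs along the thin filament, had 1411 counts with the mutant label and 350 with the wild-type label, 3.29-fold higher (2.92 to 3.71). Dystrophin (dmd) and utrophin (utrn), which link actin to the membrane, were both called, dmd 3.53-fold higher (2.73 to 4.61) and utrn 6.11-fold higher (4.86 to 7.78).

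The thin filament, the myosin light chains and the small calcium-buffering and energy proteins of muscle had lower calls only. Of 41 compared, of 62 in the files, 16 were lower and none higher. Cardiac-type actin actc1b had 560 counts with the mutant label and 1014 with the wild-type label, 2.22-fold lower, muscle creatine kinase ckmb had 137 counts with the mutant label and 311 with the wild-type label, 2.78-fold lower (2.27 to 3.43), and the troponin gene TNNT3 ENSDARG00000030270 had 21 counts with the mutant label and 66 with the wild-type label, 3.85-fold lower (2.33 to 6.63). A fast troponin I gene, TNNI2 ENSDARG00000029069, had 0 counts with the mutant label and 13 with the wild-type label. It was 5.31-fold lower against the floor of 3 counts, with an interval that starts at 3.74-fold. The desmin gene DES and the 2 MYL1 genes were lower too, while tpm3, a tropomyosin, had 357 mutant-label and 293 wild-type-label counts and a ratio of 0.994 (0.849 to 1.16). In RNA-seq the same list had a median log2 ratio of -0.71 with 11 of 41 called lower in the mutant, so the lower RIP-seq counts ran with lower mRNA, and the part of one in the other was not tested. In whole embryos fewer muscle cells and less of an mRNA per cell cannot be told apart. The myogenic regulators and fusion genes, which commit cells to muscle, had 3 of 29 higher and 1 lower. The higher ones were led by the fusion peptide gene mymx with 232 mutant-label and 62 wild-type-label counts. The shares, 10.3% higher and 3.45% lower, were near the 8.37% and 5.30% of all genes. With the scaling that leaves out the 5 leading features, 1 was higher and 3 were lower.

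Large proteins of the cell surface and matrix formed another high class, with 33 of 51 higher and none lower. The Fat cadherins and their ligand Dachsous, which set planar polarity, had 7 of 9 called higher. FAT1 ENSDARG00000017591 had 2190 counts with the mutant label and 261 with the wild-type label, 6.85-fold higher (6.02 to 7.81), and FAT3 ENSDARG00000033840 had 327 counts with the mutant label and 36 with the wild-type label. Laminins are the cross-shaped trimers of basement membranes, and 7 of 12 chains compared were higher. The alpha chain LAMA1 was 7.03-fold higher (5.37 to 9.35), LAMA5 was 5.76-fold higher (4.58 to 7.33), and the shared gamma chain lamc1 was 2.29-fold higher (1.90 to 2.77). The endocytic receptor LRP1 ENSDARG00000029146 had 700 counts with the mutant label and 87 with the wild-type label, and perlecan (HSPG2), the heparan sulphate proteoglycan of the same membranes, had 379 counts with the mutant label and 59 with the wild-type label.

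Collagens are the main fibres and sheets of the matrix. Of 44 compared 9 were higher and 1, COL8A2, was lower, 20.5% and 2.27% against 8.37% and 5.30% of all genes. COL12A1, a collagen that coats fibrils, was 5.16-fold higher (4.05 to 6.64) in one gene and 3.88-fold higher in its copy, and the anchoring fibril collagen col7a1 was 2.64-fold higher (1.97 to 3.59). COL5A1, which sets the width of fibrils, was 2.83-fold higher (2.17 to 3.72). Other fibril chains were not called: of the 2 COL2A1 genes of cartilage and notochord, one had 411 mutant-label and 260 wild-type-label counts and the other 156 mutant-label and 103 wild-type-label counts, and col1a1a of skin and bone had 110 mutant-label and 131 wild-type-label counts and a ratio of 0.685 (0.527 to 0.890). Protocadherins and classical cadherins gave 7 of 37 higher and 1 lower, 18.9% and 2.70%. Neither cdh1 of epithelial junctions, with 136 mutant-label and 105 wild-type-label counts, nor CDH2 of neural ones, with 235 mutant-label and 171 wild-type-label counts, was called.

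In signalling pathways the shares called higher were smaller than the 64.7% of the large matrix and adhesion proteins. Among the Notch genes 6 of 28 were higher and 2 lower, 21.4% and 7.14% against 8.37% and 5.30% of all genes. The higher ones were NOTCH3 (618 mutant-label and 131 wild-type-label counts), notch2 (312 mutant-label and 80 wild-type-label counts) and both NOTCH1 genes, which are receptors cut at the membrane to signal, the ligand gene jag2a (25 mutant-label and 7 wild-type-label counts) and the target gene her12 (34 mutant-label and 11 wild-type-label counts). Another ligand gene, dlb, had 34 mutant-label and 72 wild-type-label counts, 2.60-fold lower (1.70 to 4.03). RBPJ is the DNA-binding partner of Notch in the nucleus. One of its 2 genes, ENSDARG00000052091, had 0 counts with the mutant label and 11 with the wild-type label, 4.49-fold lower against the floor of 3 counts. The other, ENSDARG00000003398, had 20 counts with the mutant label and 24 with the wild-type label and was not called. The median log2 ratio of the Notch list was 0.17, and it was below 0 with the scaling that leaves out the 5 leading features and with a larger prior count.

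The Wnt, BMP, FGF and Hedgehog genes had 5 of 71 higher and 2 lower, shares no larger than those of all genes. The higher ones included the Hedgehog receptor PTCH1, with 111 mutant-label and 44 wild-type-label counts, its target GLI1, with 162 mutant-label and 46 wild-type-label counts, and the Wnt scaffold APC, with 188 mutant-label and 74 wild-type-label counts. beta-catenin (CTNNB1), the Wnt effector, had 621 mutant-label and 535 wild-type-label counts and a ratio of 0.947 (0.842 to 1.07). Hox genes, which pattern the body axis, had none of 44 higher and 2 lower, 4.55% against 5.30% of all genes. At least 10 counts in each library were reached by 4 of the 44, so most of them were thinly counted. DESeq2 size factors gave 2 higher and 2 lower. Zinc finger genes, most of them transcription factors, had 17 of 159 higher and 7 lower, close to the background, with znf638 at 722 mutant-label and 167 wild-type-label counts and znf1035 at 595 mutant-label and 144 wild-type-label counts.

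The yolk syncytial layer, which feeds the embryo by packaging lipid into lipoproteins, was split between its carriers. Apolipoprotein B is the large protein that wraps a whole lipoprotein particle, and all 3 of its genes were higher. apobb.1 had 7927 counts with the mutant label and 1429 with the wild-type label, 4.53-fold higher (4.28 to 4.79), APOB had 2174 counts with the mutant label and 206 with the wild-type label, 8.61-fold higher (7.46 to 9.98), and apobb.2 had 115 counts with the mutant label and 16 with the wild-type label, 5.86-fold higher (3.46 to 10.6). Its loading factor MTTP, the lipid transfer protein that fills the particle, was 2.02-fold higher (1.28 to 3.29).

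The small exchangeable apolipoproteins of the same particles had no called gene among the 11 compared, and their median log2 ratio was 0.01. apoeb had 616 counts with the mutant label and 467 with the wild-type label with a ratio of 1.08 (0.953 to 1.22), apoa1b had 458 counts with the mutant label and 370 with the wild-type label with a ratio of 1.01 (0.879 to 1.16), and apoa1a had 505 counts with the mutant label and 520 with the wild-type label with a ratio of 0.792 (0.700 to 0.897). These genes share a tissue and a function, and their counts lay close to the scaled equality of the 2 libraries. In RNA-seq none of the 22 yolk and liver genes was called in either direction, and the median log2 ratio was 0.00.

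Genes of the RNA machinery in which DDX39A itself works had list medians near equality, though the mRNA export list had a larger share of higher calls than all genes. Of 46 DEAD and DEAH box helicases 2 were higher and 4 lower, 4.35% and 8.70% against 8.37% and 5.30% of all genes. The median log2 ratio was 0.08, or -0.14 without the 5 leading features in the scaling. DDX21, a helicase of ribosome biogenesis, had 435 counts with the mutant label and 859 with the wild-type label, 2.42-fold lower (2.15 to 2.72), and DDX24 had 99 counts with the mutant label and 174 with the wild-type label, 2.15-fold lower (1.67 to 2.79). DHX38, which acts in splicing, had 70 counts with the mutant label and 14 with the wild-type label, 4.08-fold higher (2.28 to 7.84). DDX5, one of the most abundant, had 596 mutant-label and 421 wild-type-label counts and a ratio of 1.16 (1.02 to 1.31).

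The THO/TREX and mRNA export list had none of 32 lower and 7 higher, 21.9% against 8.37% of all genes. They were the nuclear pore proteins RANBP2, NUP210, TPR and nup214, the THO subunit THOC2, the export cofactor zc3h11a and the export receptor subunit NXT2. RANBP2 had 425 counts with the mutant label and 116 with the wild-type label, 2.99-fold higher (2.43 to 3.70), and THOC2, the largest THO subunit and its scaffold, had 367 counts with the mutant label and 124 with the wild-type label, 2.42-fold higher (1.96 to 2.98). The adaptor alyref, which the DDX39 helicases load on mRNA, had 315 counts with the mutant label and 203 with the wild-type label and was not called, with a ratio of 1.27 (1.06 to 1.52), while in RNA-seq it had 10175 counts in the mutant and 5732 in the wild type. Across 30 nucleoporin genes 4 were higher and 1, NUP88, was lower, 13.3% and 3.33% against 8.37% and 5.30% of all genes.

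SR proteins and hnRNPs, which choose splice sites and package nascent RNA, had 2 of 56 higher and 1 lower, with a median log2 ratio of -0.05. The shares were 3.57% and 1.79%, against 8.37% and 5.30% of all genes. The higher ones were the 2 acinus genes, acin1a with 484 mutant-label and 164 wild-type-label counts and acin1b with 196 mutant-label and 67 wild-type-label counts, and the lower one was srsf10b with 33 mutant-label and 57 wild-type-label counts. Core spliceosome genes had 1 of 57 in each direction, 1.75%. The large spliceosome proteins missed the size rule, PRPF8 with 708 mutant-label and 425 wild-type-label counts at a ratio of 1.36, and SNRNP200 with 448 mutant-label and 201 wild-type-label counts at a ratio of 1.82. Exon junction and decay factors had 2 of 38 higher and 2 lower, 5.26% in each direction against 8.37% and 5.30% of all genes. Among them, CNOT1, the scaffold of the deadenylase complex, was 2.03-fold higher (1.75 to 2.37) and the exonuclease XRN1 was 2.56-fold higher (1.74 to 3.87). EIF4A3, the helicase at the heart of the exon junction complex, had 203 mutant-label and 170 wild-type-label counts.

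The ribosomal, proteasome, nuclear respiratory chain and translation factor lists had median log2 ratios between -0.51 and -0.14, against -0.06 for all genes. None of the 77 cytoplasmic ribosomal protein genes compared, of 80 in the files, was called, and 2 of them had a ratio above 1. RPL4 had 1064 counts with the mutant label and 1297 with the wild-type label, a ratio of 0.669 (0.617 to 0.726). Mitochondrial ribosomal proteins had none of 73 higher and 8 lower, proteasome subunits none of 48 higher and 2 lower, and nuclear respiratory chain genes 1 of 99 higher and 9 lower, the higher one atp5mf and the lower ones all with 26 counts or fewer with the mutant label. With at least 10 counts asked of each library, 3 respiratory chain genes and 1 mitochondrial ribosomal gene were lower, and with the scaling that leaves out the 5 leading features 19 respiratory chain and 12 mitochondrial ribosomal genes were. The 13 genes of the mitochondrial genome were not called and had a median log2 ratio of 0.30, above 0 where the nuclear respiratory genes were below it. Translation factors had 1 of 69 higher and 4 lower, 1.45% and 5.80% against 8.37% and 5.30% of all genes. EIF4G1, the large scaffold of the cap complex, had 988 mutant-label and 547 wild-type-label counts and a ratio of 1.47 (1.33 to 1.64). The initiation factor subunit EIF3F had 82 mutant-label and 151 wild-type-label counts, 2.26-fold lower (1.71 to 2.99).

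Chaperones gave 1 lower of 40 and tubulins with cytoplasmic actins 3 lower of 28, 2.5% and 10.7% against 5.30% of all genes. The actin gene actb2 had 1508 mutant-label and 1819 wild-type-label counts. Histone genes had 2 of 20 lower, 10%, and since many histone genes are near-identical copies their unique counts are uncertain. Cell cycle genes were spread on both sides. The mitotic kinase aurka was 2.37-fold lower (1.51 to 3.79), AURKB was 2.45-fold lower (1.47 to 4.18), the replicative polymerase POLE was 2.63-fold higher (1.95 to 3.58), and the proliferation marker mki67, a very large protein of mitotic chromosomes, had 1433 mutant-label and 642 wild-type-label counts and a ratio of 1.82 (1.66 to 2.002). Small nuclear and structural RNAs had 2 of 32 compared higher and 2 lower, 6.25% in each direction against 8.37% and 5.30% of all genes. Their median log2 ratio was -0.29. Their summed CPM was 41026.3 with the mutant label and 54276.5 with the wild-type label, a ratio of 0.756. Among them, the signal recognition particle RNA rn7sl1 had 4069 mutant-label and 3249 wild-type-label counts, a ratio of 1.02. The transcription regulator rn7sk had 2226 mutant-label and 1938 wild-type-label counts, a ratio of 0.937. Both RNAs held a small part of the summed CPM. These RNAs were counted although the enrichment step in the labels' protocols selects poly(A) RNA.

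Among cell type lists, erythroid genes had 5 of 17 lower, 29.4% against 5.30% of all genes, with none higher and 5 ratios above 1. The yolk and liver list described above had 5 of 22 higher and none lower. The lower erythroid genes were the 5 globin genes compared, of 14 in the files. Of these, hbae3, an embryonic alpha globin, was 2.95-fold lower (2.24 to 3.92) and the beta-type hbbe3 was 3.63-fold lower (2.25 to 6.02). HBE1 (2 mutant-label and 13 wild-type-label counts) and hbae1.3 (2 mutant-label and 14 wild-type-label counts) passed the expression limit through the wild-type label only. In RNA-seq the 5 globin genes also had fewer counts in the mutant, and 3 of the 17 erythroid genes were called lower there. Keratins of the skin were lower in 2 of 17, 11.8% against 5.30% of all genes. The bulk gene krt4 had 8053 counts with the mutant label and 10588 with the wild-type label with a ratio of 0.621 (0.603 to 0.639), short of the 2-fold size. The gene krt1-19d had 4 counts with the mutant label and 28 with the wild-type label, 8.58-fold lower (3.001 to 33.7). In RNA-seq the epidermis and keratin list had a median log2 ratio of 0.03.

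Neuronal genes had 5 of 27 lower, 18.5% against 5.30% of all genes, and none higher. Their median log2 ratio of -0.95 became 0.04 when at least 10 counts were asked of each library. The lower genes were thinly counted, among them STMN2 ENSDARG00000070537, a microtubule regulator of growing axons, at 6 mutant-label and 20 wild-type-label counts. ELAVL3, the RNA-binding marker of new neurons, had 78 mutant-label and 75 wild-type-label counts and was not called. Neural progenitor genes had 2 of 29 lower, 6.90% and near the share of all genes, and SOX3 had 95 mutant-label and 91 wild-type-label counts. In the notochord, hatching gland and pigment list 4 of 20 were lower, 20% against 5.30% of all genes. With at least 10 counts asked of each library, 1 of 10 was lower. The melanin enzyme DCT had 0 counts with the mutant label and 10 with the wild-type label, 4.09-fold lower against the floor of 3 counts. The hatching enzyme he1.1 had 113 mutant-label and 221 wild-type-label counts, 2.40-fold lower (1.90 to 3.03). Blood stem cell and endothelial genes had 1 of 19 higher, CEBPA, and 2 lower, SPI1 and MYB. The shares were 5.26% higher and 10.5% lower, against 8.37% and 5.30% of all genes, and rest on these few genes. With a CPM of at least 5 asked, 1 of 13 was lower. For lens, 8 of 63 genes passed the expression limit, each through 2 to 4 counts with the wild-type label, so their log2 median of -3.10 rests on almost no reads, and the median with zeros set to the floor was -0.71 over the 4 genes for which one can be given. All 8 were called lower in mutant RNA-seq.

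Among the 20 named genes with the highest ratios were proteins of several other kinds. hydin, needed for ciliary beating, had 108 counts with the mutant label and 4 with the wild-type label, 22.0-fold higher (8.36 to 82.3). IGF2R, which carries enzymes to lysosomes, had 273 counts with the mutant label and 19 with the wild-type label, 11.7-fold higher (7.36 to 19.8). ZFHX4, a homeodomain zinc finger gene, was one of them, and all 3 ZFHX genes were higher, ZFHX4 with 1090 mutant-label and 108 wild-type-label counts, ZFHX3 with 763 mutant-label and 91 wild-type-label counts and zfhx3a with 904 mutant-label and 236 wild-type-label counts. In RNA-seq none of these 3 was called, at ratios of 1.97 for ZFHX4, 1.81 for ZFHX3 and 1.05 for zfhx3a. ADGRV1, the giant adhesion receptor of hair cells, was 9.44-fold higher (6.68 to 13.7), and wdfy4 was 12.4-fold higher (7.71 to 21.3).

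The 20 lowest named genes rested on far fewer reads. Of them 11 had 0 counts with the mutant label and 10 to 14 with the wild-type label. ATP1B4 was 5.72-fold lower, the deubiquitinase JOSD1 5.31-fold lower and the regulator of G protein signalling RGS19 4.90-fold lower, each against the floor of 3 counts. mapk13, a stress kinase, had 1 count with the mutant label and 20 with the wild-type label, and TGM2 ENSDARG00000070157, a transglutaminase that crosslinks proteins, had 6 counts with the mutant label and 37 with the wild-type label, 7.56-fold lower (3.16 to 21.9). The well-counted genes at this end were of muscle: tnnt2c, a troponin T gene, had 370 counts with the mutant label and 1012 with the wild-type label, 3.35-fold lower (2.97 to 3.79), and ckma had 121 counts with the mutant label and 350 with the wild-type label.

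Equality had its own members. Among the 306 genes that reached a CPM of 100 in both, the ratios nearest to 1 included those of SYNCRIP, an hnRNP that binds mRNA in transport, with 730 counts with the mutant label and 595 with the wild-type label, the iron carrier transferrin (tfa) with 561 counts with the mutant label and 460 with the wild-type label, and tpm3.

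The share of genes called in RIP-seq varied with the level of their mRNA in the RNA-seq libraries. Genes with a mean RNA-seq CPM of 50 to 100 had 12.7% called higher and 5.35% lower, and those of 100 to 200 had 12.6% higher and 4.14% lower. Among the 280 genes above 500 the order turned, with 2.14% higher and 5.36% lower. At a CPM of up to 1 the shares were 2.59% higher and 3.21% lower. Genes with few RIP-seq counts can seldom pass the call rule. The 2208 genes with a CPM of 1 to 5 together held 10899 mutant-label and 8526 wild-type-label counts, and 4.48% were higher and 3.17% lower. The part of RIP-seq depth in these shares was not tested. The median log2 ratio was -0.47 at a CPM of up to 1, between -0.29 and 0.04 in the classes from 1 to 500, and -0.29 above 500.

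**Figure D4:**
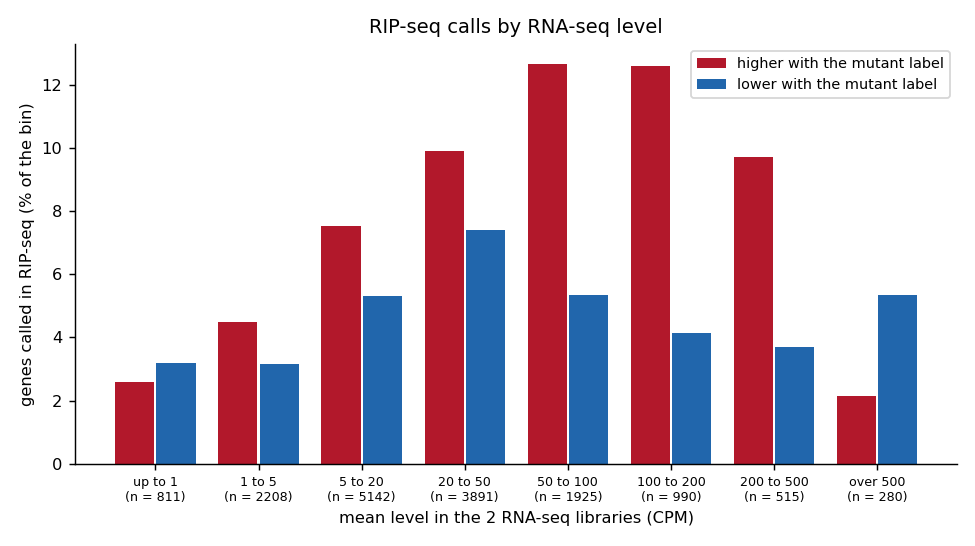
Bars give the percentage of genes called higher (red) and lower (blue) with the mutant label in RIP-seq, for 8 classes of mean RNA-seq CPM with the number of genes under each. The higher share climbs to 12.7% at a CPM of 50 to 100 and is 2.14% above 500, where the lower share is 5.36%. Genes with few RIP-seq counts can seldom be called, and the part of RIP-seq depth in these shares was not tested.

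Of the genes compared, 15095 were also compared in RNA-seq, which shares no library with the RIP-seq pair. Most RIP-seq calls had no counterpart there. The 1306 genes called higher in RIP-seq had an RNA-seq median log2 ratio of 0.05 and the 812 called lower one of -0.04, against 0.00 for all. Across the 15095 genes the rank correlation of the log2 ratios was 0.089, a description of genes that are not independent and often rest on few RIP-seq counts. In the other direction, the 212 genes called lower in mutant RNA-seq had a RIP-seq median of -0.67 and the 185 called higher one of 0.07.

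A total of 22 genes were called higher in both assays. They were 1.68% of those higher in RIP-seq, against 1.23% of all 15095 called higher in RNA-seq, and 11.9% of those higher in RNA-seq, against 8.65% of all called higher in RIP-seq. SPEN ENSDARG00000074245, a corepressor of Notch target genes, had 304 counts with the mutant label and 29 with the wild-type label in RIP-seq and 1108 counts in the mutant and 486 in the wild type in RNA-seq, 2.28-fold higher. The slow-type myosin gene myh7bb had 157 counts with the mutant label and 13 with the wild-type label in RIP-seq and 1063 counts in the mutant and 512 in the wild type in RNA-seq, 2.07-fold higher. The zinc finger genes HIVEP1 and HIVEP2 and the protocadherin pcdh8 were among the others.

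Another 21 were called lower in both. They were 2.59% of the genes lower in RIP-seq, against 1.40% of all 15095 called lower in RNA-seq, and 9.91% of those lower in RNA-seq, against 5.38% of all called lower in RIP-seq. They included genes of muscle and blood: a MYL11 gene, ENSDARG00000053254, the regulatory light chain of fast myosin, had 156 counts with the mutant label and 273 with the wild-type label in RIP-seq and 10309 counts in the mutant and 23279 in the wild type in RNA-seq, 2.26-fold lower. The muscle membrane coat gene cav3 had 17 counts with the mutant label and 33 with the wild-type label in RIP-seq and was 2.27-fold lower in RNA-seq. CYGB, a cytoglobin gene, the globins HBE1 and hbae1.3 and the calcium buffer pvalb2 were also lower in both.

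Opposite calls were fewer. Of the genes higher in RIP-seq 7 were lower in mutant RNA-seq. They were 0.536% of the RIP-seq set, against 1.40% of all 15095, and 3.30% of the RNA-seq set, against 8.65% of all. Another 3 went the other way, 0.369% of those lower in RIP-seq, against 1.23% of all, and 1.62% of those higher in RNA-seq, against 5.38% of all. The opposite calls included RYR1 ENSDARG00000011422, with 417 counts with the mutant label and 42 with the wild-type label in RIP-seq, 8.10-fold higher (5.89 to 11.4). In RNA-seq it had 358 counts in the mutant and 803 in the wild type, 2.25-fold lower. The RNA component gene of nuclear RNase P, ENSDARG00000085497, had 20 counts with the mutant label and 39 with the wild-type label in RIP-seq and 49 counts in the mutant and 4 in the wild type in RNA-seq.

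**Figure D5:**
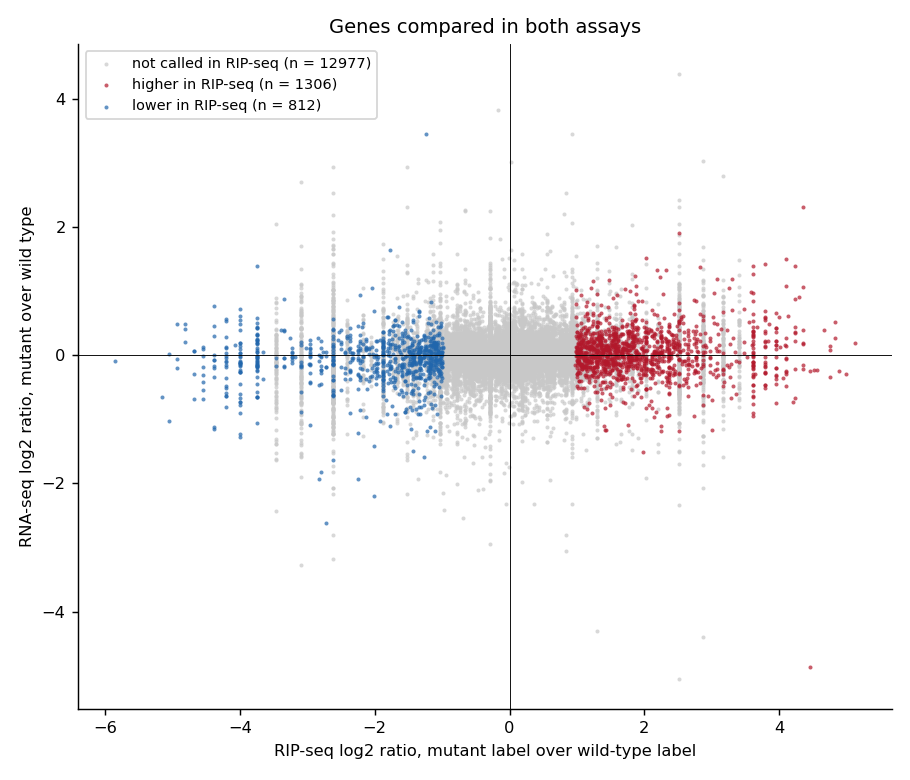
Each point is 1 of the 15095 genes compared in both assays, placed by its RIP-seq log2 ratio (mutant label over wild-type label) and its RNA-seq log2 ratio (mutant over wild type), with the 1306 genes called higher in RIP-seq in red and the 812 called lower in blue. Red and blue points are centred near 0 on the RNA-seq axis, at medians of 0.05 and -0.04.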

How the data were processed

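The authors deposited raw counts for each gene of the Ensembl annotation in 1 table for every library. The submitters' processing notes name HTSeq 0.6.1p1 among the tools, beside Bowtie2 2.2.3, TopHat2 2.2.1, FastQC 0.11.5 and bcl2fastq, and the build GRCz10. Neither strand setting nor annotation release is given in the sources used here. Reads of overlapping or antisense genes can therefore not be separated. The 5 summary rows that HTSeq adds took no part in library sizes or ratios. Gene symbols, often human-style, were matched for 26121 of 31953 gene IDs, and 1630 symbols stand for more than 1 ID.

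Each pair of libraries was scaled by TMM factors (edgeR 4.0.16 in R 4.3.3), and a gene was compared if it reached a CPM of 1 in at least one of the pair. Log2 ratios had a prior count of 0.5 per library. Intervals are 95% conditional binomial (Clopper-Pearson). A fold against 0 counts sets the 0 to a floor of 3 counts per library, a CPM of 1.29 with the mutant label and 1.58 with the wild-type label. Such a fold leaves out the counting error of the other library, and its interval can start lower. No p-values were computed, with 1 library per group. The call rule was run on simulated counts with known folds, drawn with counting error only and for well-counted genes. That run checks the calculation. It cannot show how the calls hold with copied reads, low counts or spread between libraries. The scripts ran on scipy 1.17.1, pandas 2.3.3, numpy 2.4.6 and matplotlib 3.10.9 under Python 3.11.15.

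The members and the 45 gene lists, which hold 1816 of the genes compared, were chosen with earlier results of these data known, and some list entries were corrected by name afterwards. Smaller sets (dynein heavy chains, laminins, Fat cadherins, TET, ZFHX, apolipoproteins, globins, keratins, nucleoporins and all Mediator subunits) were chosen after values were seen. Named genes were the ddx39 genes, the 20 at each end when 7981 symbol-bearing genes that reached a CPM of 5 were ranked on the interval bound closest to 1, up to 6 called members in each direction and the 3 most abundant of each list, the 10 most abundant features and the 5 nearest to 1 among abundant genes. Other genes named, as examples of an assembly or an overlap, were chosen after their values were seen. Alternatives were DESeq2 1.42.0 size factors, other scalings, filters, sizes and prior counts. A comparison by protein length was planned and was not analysed here. Some genes that the rule names are not reported here.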

Additional observations from a re-analysis of the deposited data

Results flagged for a closer look

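These 2 results stood out because RIP-seq and RNA-seq moved in opposite directions at a depth of at least 100 RIP-seq counts, both with intervals that exclude 1. RYR1 ENSDARG00000011422, a skeletal muscle calcium release channel, was 8.10-fold higher (5.89 to 11.4) with the mutant label in RIP-seq and 2.25-fold lower in mutant RNA-seq. TTN ENSDARG00000000563, a titin gene, had 9280 counts with the mutant label and 1921 with the wild-type label in RIP-seq, 3.94-fold higher (3.75 to 4.14), and 2168 counts in the mutant and 6143 in the wild type in RNA-seq, 2.84-fold lower. With 1 library per group, the difference between the assays was not tested for either gene.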

How the results depend on the processing

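With 1 library per label, neither spread nor leaving out a library could be examined, and low counts limit many calls, lower ones included. No paired analysis was possible because each group holds 1 library. Relative to the TMM scaling, total counts shifted every log2 ratio by 0.10 and totals without the 5 leading features by -0.22. Under that last scaling 1004 genes were higher and 1333 lower, and the cytoplasmic ribosomal protein median was -0.62, against -0.30 with total counts. Asking for at least 10 counts in each library left 742 higher and 302 lower, a 4-fold size 564 and 367, and a whole interval beyond 2-fold 440 and 74. With a prior count of 5 the median of the large matrix and adhesion proteins was 1.25. DESeq2 size factors gave 1428 and 781, total counts 1555 and 695, upper-quartile factors 1262 and 887, and a CPM of at least 5 gave 1179 and 647.

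Of the 45 list medians 31 kept their sign under every alternative run, among them all those above 0.3 and the muscle, ribosomal and respiratory lists. Sign changes came mostly with the scaling that leaves out the 5 leading features (Hox, Notch, THO/TREX, helicase, spliceosome, decay, blood, yolk, zinc finger and myogenic lists, all with medians between 0.02 and 0.21). SR and hnRNP genes and cell cycle genes turned positive with total counts. Among lists with at least 5 calls, asking for 10 counts in each library left 0 lower zinc finger, 1 lower neuronal and 2 lower erythroid genes, with 19 motor and 2 cadherin genes higher. Totals without the 5 leading features left 3 THO/TREX and 2 Wnt to Hedgehog genes higher, and total counts gave 8 of the last. Exact symbols left 6 plakin and 3 yolk genes higher, and a CPM of at least 5 left 4 zinc finger genes lower. A 4-fold size cut the calls by over 1.5 times in 16 of 17 lists with higher calls and 5 of 6 with lower ones, and a whole interval beyond 2-fold did so in 9 and 6. Of the single-gene ratios, 1719 values kept their side of the call rule, 267 lost the call, 6 gained it and none reversed. The cause of these differences was not tested.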

Other observations

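Zebrafish carry many genes in 2 copies, and these were compared within the same 2 libraries. Among 158 pairs of genes that share a symbol and have at least 50 RIP-seq counts each, 54 had at least 1 copy called higher with the mutant label and 29 had both. For lower calls the numbers were 6 and 2, no pair had one copy higher and the other lower, and the 2 ratios lay on the same side of 1 in 121 pairs. Of all single genes compared, at any depth, 8.37% were higher and 5.30% lower. Shares for single genes or unrelated pairs at the depth of these pairs were not computed, so the numbers only describe the pairs. Copies with near-identical sequence can share reads that the counting dropped, so their ratios rest on the parts that differ.

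Features with no symbol or only a clone name took 68.0% of the mutant-label counts and 73.1% of the wild-type-label counts. Of the 2485 compared, 185 were higher and 101 lower, and their median log2 ratio was -0.04. The leading one, zgc:158463, had 777625 counts with the mutant label and 743254 with the wild-type label, a ratio of 0.854, and in RNA-seq 382 counts in the mutant and 267 in the wild type. The next, si:dkey-153m14.1, had 648839 counts with the mutant label and 606960 with the wild-type label, a ratio of 0.872, and in RNA-seq 93 counts in the mutant and 98 in the wild type.

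Among the 15762 genes past the expression limit, 954 had no count with the mutant label, of which 141 were called lower, and 807 had none with the wild-type label, of which 116 were called higher. Without that limit, which a count of 2 passes with the wild-type label and not with the mutant label, 1711 genes were at 0 with the mutant label and counted with the wild-type label, and 2454 the other way round.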
